A study of Mus musculus with 192 samples.

Results

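Flt3 and Kit, which encode the receptors read at the cell surface as CD135 and cKit (CD117), are described here cell by cell as mRNA and beside the antibody signals of the same cells. They are 2 of the 20764 genes in the counts and were taken by name, through their Ensembl identifiers. The cells were taken from C57BL/6 bone marrow (mice of 8 to 16 weeks) and were sorted 1 per well as LSK cells, which lack lineage markers and carry Sca-1 and cKit. The marrow had been enriched on magnetic beads with an APC antibody to CD117, so the cKit signal had a lower limit set by the enrichment and the sort. CD135 was stained with a PE antibody. There was no treatment and no second genotype. The mouse protocol also names Pep3b, Cas9-Tg and Dach1-GFP animals, while every cell carries the strain label C57BL/6. No animal is named, so all cells count as 1 biological sample, and no test or p-value is given.

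FLT3 and KIT are class III receptor tyrosine kinases. Both are dimerised and activated by ligands made by neighbouring cells, FLT3 by FLT3 ligand and KIT by stem cell factor. KIT is carried by haematopoietic stem cells and is needed for their maintenance, and it is kept on mast cells. FLT3 protein is absent from the most primitive stem cells and appears on multipotent and lymphoid-primed progenitors, from which dendritic and lymphoid cells arise.

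Both genes lie on mouse chromosome 5 (GRCm38). Flt3 (ENSMUSG00000042817) spans positions 147330741 to 147400489 on the minus strand, and Kit (ENSMUSG00000005672) spans positions 75574916 to 75656722 on the plus strand. Flt3 is overlapped on the other strand by Gm26597, which had 3 unique molecular identifiers (UMIs, each the tag of 1 captured mRNA) in all cells. Kit overlaps no other annotated gene. The promoter stretches are shown because the pair moved in opposite directions along the CD135 and cKit signals below. Each is 300 bases long, from 250 before to 50 after the transcript start, from RefSeq on GRCm38.p6, chr5:147400440-147400739 minus for Flt3 and chr5:75574737-75575036 plus for Kit, which has 2 promoters in that table. Capitals mark matches to CANNTG (the E-box) and GGGCGG (the GC box).
Flt3: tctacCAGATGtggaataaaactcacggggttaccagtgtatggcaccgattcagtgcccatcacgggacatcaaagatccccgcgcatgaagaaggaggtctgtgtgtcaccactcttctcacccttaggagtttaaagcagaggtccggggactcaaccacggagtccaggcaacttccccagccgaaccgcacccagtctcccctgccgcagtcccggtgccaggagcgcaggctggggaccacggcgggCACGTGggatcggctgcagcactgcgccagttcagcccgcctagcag
Kit: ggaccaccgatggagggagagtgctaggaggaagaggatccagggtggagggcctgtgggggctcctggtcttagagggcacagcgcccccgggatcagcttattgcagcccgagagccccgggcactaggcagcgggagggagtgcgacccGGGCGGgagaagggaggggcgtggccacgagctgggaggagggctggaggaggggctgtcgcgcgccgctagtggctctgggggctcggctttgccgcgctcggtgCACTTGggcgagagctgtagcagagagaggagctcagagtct
The stretches had 61% and 69% GC and 18 and 20 CpG dinucleotides for Flt3 and Kit. Fewer CpG dinucleotides than these were found in 70.27% and 73.51% of the 32841 promoters of the table. On either strand, the Flt3 stretch held 2 matches to CANNTG, of which the second reads CACGTG, and none to GGGCGG, and the Kit stretch held 1 of each. CANNTG was found in 72.32% of all promoters, CACGTG in 7.153% and GGGCGG in 35.67%. The core motif of GATA factors, AGATAA, was in neither stretch and in 11.18% of all promoters. The RUNX motif TGTGGT and the MEIS motif TGACAG were in neither stretch as well, and in 16.76% and 19.18% of all promoters. These are matches of letters and say nothing of binding.

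Of the 192 cells, in 2 library pools of 96, 191 were kept, with 3704842 gene UMIs and a median of 17715 per cell (3927 to 49372). The cell left out, of pool 2, had 708 UMIs and none of either receptor. The pools carry the same 96 cell indexes. Cells that share an index across pools did not share receptor levels (Spearman rho 0.03 for Flt3 and -0.07 for Kit, over 95 pairs). The markers of the sort were present: Kit in 188 cells, Ptprc in 184, Cd34 with 1845 UMIs and Ly6a, which encodes Sca-1, in 72. Of 10 genes of mature lineages, Cd3e, Ms4a1, Ly6g and S100a8 had no UMI.

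Nearly every cell held Kit mRNA and most held Flt3 mRNA, so the receptors were far from exclusive in these cells at this depth. The cells had been enriched and sorted for cKit, so how often Flt3 occurs without Kit outside this sort cannot be read here. Flt3 had 1141 UMIs and was found in all but 26 cells, with 0, 5 and 23 per cell as the lowest, median and highest count. Kit had 1564 UMIs in 188 cells, with 0, 7 and 26 per cell. Summed over cells, that is 308 Flt3 and 422 Kit UMIs per 1000000 gene UMIs (CPM). A UMI is counted once per molecule at the poly(A) end and is not scaled by gene length, but capture of the mRNAs may differ, so the Flt3 share of the summed receptor UMIs is read only for how it varies between cells. It was 39.4% in pool 1 and 45.1% in pool 2.

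UMIs of both receptors were found in 163 of 191 cells (85.3%, exact Clopper-Pearson 95% interval 79.5 to 90.03). Kit alone was found in 25 cells, Flt3 alone in 2 and neither in 1. This cell with neither had the fewest UMIs of all those kept, 3927. When each cell was thinned to 12147 UMIs, which left out 19 shallower cells, 139 of 172 cells (80.8%) still held both. Kit outnumbered Flt3 in 105 cells, Flt3 outnumbered Kit in 71, and the counts were equal in 15. As capture of the mRNAs may differ, such numbers of cells are also read only for how they vary between classes. The intervals here and below cover counting error only, not variation between cells or animals.

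**Figure D1:**
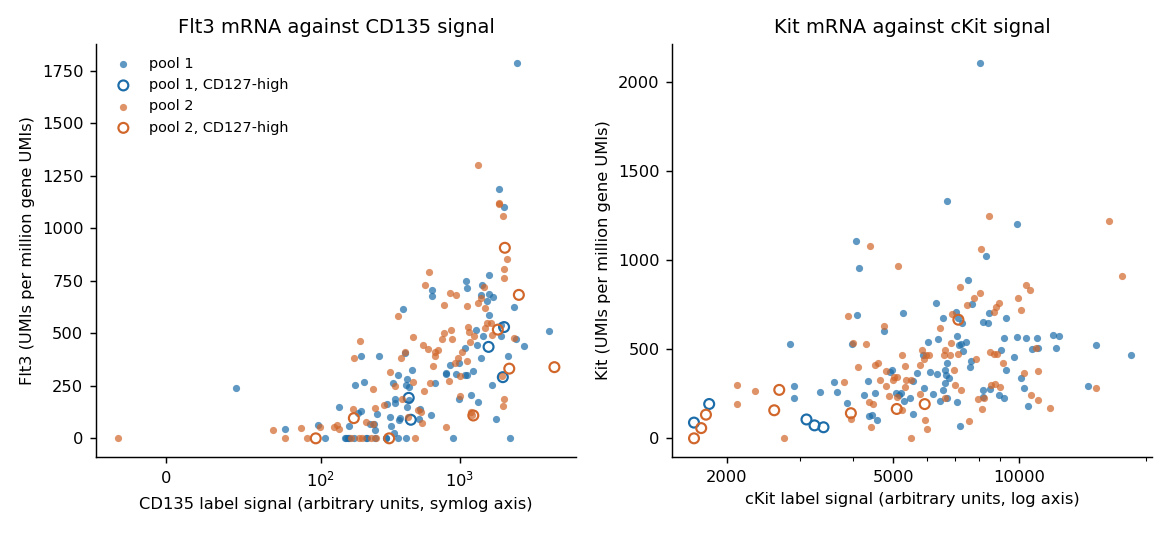
Receptor mRNA of each cell, in UMIs per 1000000 gene UMIs, against the antibody signal of its own protein in arbitrary units, for Flt3 and CD135 (left) and Kit and cKit (right). Points are cells, coloured by library pool, and open rings are the 14 CD127-high cells. Flt3 climbs steeply with CD135 (rho 0.69), while the Kit points form a broad cloud (rho 0.39) with most rings at the lower left.

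Flt3 mRNA followed its own protein closely and Kit mRNA followed its own protein less closely. The signals had unlike ranges. The cKit signal, with the lower limit named above, ran from 1671 to 18421, and CD135 ran from -31.2 to 4783. Whether that limit has a part in the difference was not tested. For the comparisons, the 32 cells of each pool with the lowest, middle and highest signal formed lower, middle and upper classes, of 63 or 64 cells kept over both pools. As ranks were taken within pools, the signal ranges of neighbouring classes can overlap slightly. Flt3 per cell ran from 0 to 585 CPM with a median of 63.8 in CD135-lower cells, from 0 to 790 CPM with a median of 305 in CD135-middle cells, and from 0 to 1788 CPM with a median of 518 in CD135-upper cells. The medians climb in step, yet all classes reach down to 0 and their ranges overlap. The summed Flt3 level was 97.1, 307 and 533 CPM in the lower, middle and upper class. Upper over lower was 2.46 on the log2 scale (exact 95% interval 2.18 to 2.75), with 2.52 in pool 1 and 2.39 in pool 2.

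Kit per cell ran from 0 to 1109 CPM with a median of 261 in cKit-lower cells, from 0 to 1334 CPM with a median of 419 in cKit-middle cells, and from 95.5 to 2110 CPM with a median of 499 in cKit-upper cells. Every cKit-upper cell held Kit mRNA, but the lower and upper ranges overlap over most of their length. The summed Kit level was 299, 432 and 512 CPM in the lower, middle and upper class. Upper over lower was 0.77 on the log2 scale (0.59 to 0.97), with 0.76 in pool 1 and 0.80 in pool 2. Without the 14 CD127-high cells, which are described further below, the ratio was 0.52.

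Over 191 cells, the Spearman correlation of Flt3 CPM with CD135 was 0.69 (0.70 in pool 1 and 0.69 in pool 2), and that of Kit CPM with cKit was 0.39 (0.38 and 0.40). The cells share a library pool and differ in depth, and the values are descriptions. Unscaled Kit UMIs had a correlation of 0.52 with cKit. The depth of a cell moved with Kit more than with Flt3. Kit UMIs had a correlation of 0.35 with the gene UMIs of a cell, against 0.07 for Flt3 UMIs, and cKit-upper cells had 21946 gene UMIs per cell, against 17824 in cKit-lower cells. Whether depth has a part in the link of Kit to cKit was not tested.

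Read against other genes, each receptor was near the head of the list for its own protein. Among 2589 genes with at least 200 UMIs, only Ighm, the immunoglobulin mu heavy chain, had a higher correlation with CD135 (0.77) than Flt3. Kit was 5th for cKit, where Muc13, a membrane mucin, was highest (0.44). Each receptor was also near the foot of the list for the other protein. Kit was 20th from the bottom for CD135 (-0.34), and Flt3 was 4th from the bottom for cKit (-0.42).

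Dividing cells into 3 classes by the mRNA level as well shows how often a single cell departed from its protein class. The Flt3 level fell in the matching class for 124 of 191 cells, and in the opposite end for 9. Of these, 6 were CD135-upper cells with Flt3 among the lowest, and 3 were CD135-lower cells with Flt3 among the highest. For Kit and cKit, 94 cells matched and 25 were at opposite ends, 13 of them cKit-upper cells with low Kit and 12 cKit-lower cells with high Kit.

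Across the CD135 classes the receptor mRNAs moved in opposite directions. Kit per cell ran from 68.6 to 1248 CPM with a median of 506 in CD135-lower cells, from 0 to 2110 CPM with a median of 417 in CD135-middle cells, and from 0 to 1109 CPM with a median of 278 in CD135-upper cells. The summed Kit level was 511, 444 and 306 CPM, so it was lower where Flt3 was higher. Upper over lower was -0.74 (-0.93 to -0.56) for Kit, and the pools differed in size, with -0.47 in pool 1 and -1.06 in pool 2. Among 7232 genes with at least 50 UMIs in these classes, 2.81% were past 2-fold higher and 3.08% past 2-fold lower in the same direction in both pools. Flt3 was among those higher, with 27 genes above it. Kit was not past 2-fold, and 468 genes had a lower ratio.

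The Flt3 share of receptor UMIs was 16.0%, 40.9% and 63.6% in the lower, middle and upper CD135 class. In pool 1 it was 16.1%, 34.4% and 60.4%, and in pool 2 it was 15.8%, 47.2% and 67.2%. The ratio of Flt3 to Kit UMIs, called the balance below, was 9.18-fold higher in upper than in lower cells, or 3.20 on the log2 scale (2.86 to 3.54), with 2.99 in pool 1 and 3.44 in pool 2. Of this, the ratio of Flt3 gave 2.46 and that of Kit gave -0.74. The balance does not depend on how the cells are scaled for depth.

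**Figure D2:**
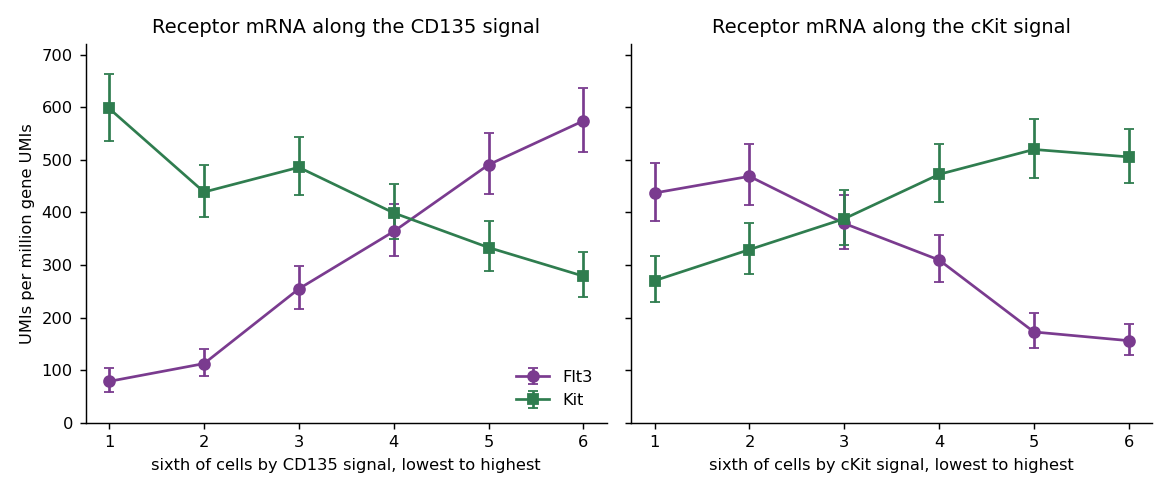
Summed Flt3 (circles) and Kit (squares) in UMIs per 1000000 gene UMIs, over sixths of the cells from the lowest to the highest CD135 signal (left) and cKit signal (right). Bars are exact Poisson 95% intervals for counting error. The lines cross just above the middle of the CD135 range and just below the middle of the cKit range. Where they cross depends on the capture of each mRNA, which may differ.

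In finer steps, with 31 or 32 cells in each sixth by CD135, Flt3 was 78.7, 113, 255, 364, 490 and 574 CPM from the lowest signal to the highest. Kit was 597, 439, 486, 399, 333 and 279 CPM over the same sixths. The Flt3 share was 11.6%, 20.4%, 34.4%, 47.7%, 59.5% and 67.3%, an increase at every step. By cKit, Flt3 was 437, 468, 379, 309, 173 and 156 CPM, and Kit was 270, 329, 388, 472, 520 and 505 CPM. Over both pools, Kit did not climb further over the upper 2 sixths, where the intervals overlap. It went from 550 to 490 CPM there in pool 1 and from 491 to 522 CPM in pool 2. Within the cKit-upper class the correlation of Kit with the signal was -0.02 (64 cells), against 0.28 and 0.32 within the lower and middle class. For Flt3 and CD135 the correlations within classes were 0.38, 0.37 and 0.17 from lower to upper.

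The cKit classes showed the reverse of the CD135 classes. Summed Flt3 was 452, 342 and 163.8 CPM in the lower, middle and upper class, and its per-cell medians were 479, 332 and 139 CPM. Upper over lower was -1.47 for Flt3 (-1.70 to -1.24), with -1.45 in pool 1 and -1.49 in pool 2. That of Kit was 0.77. With spike-in scaling the ratios were closer in size, -1.19 for Flt3 and 1.05 for Kit. The Flt3 share was 60.2%, 44.2% and 24.2%, and the balance of upper over lower was -2.24 (-2.54 to -1.94), with -2.20 and -2.29 in the pools. Among 7267 genes, 2.27% were past 2-fold higher and 1.8% past 2-fold lower. Flt3 was among those lower, with 58 genes below it, and Kit was not past 2-fold, with 334 genes above it. With spike-in scaling, which shifts the ratios of all genes by the same amount, Kit was at 1.05. The shares over all genes were not recomputed with that scaling, so Kit cannot be set against them there.

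The CD135 and cKit signals were themselves opposed over the 191 cells (rho -0.54, with -0.48 in pool 1 and -0.59 in pool 2), so the 9 combinations of their classes were read separately. Over both pools, Flt3 was higher with CD135 within each cKit class, though not by as much in each pool. In cKit-middle cells, Flt3 was 552 CPM in 19 CD135-upper cells, against 109 CPM in 19 CD135-lower cells, a log2 ratio of 2.34 (1.84 to 2.87). Kit was 394 CPM in the CD135-upper cells and 441 CPM in the CD135-lower cells of that class, -0.16 (-0.50 to 0.17), an interval that spans 0. In cKit-upper cells, only 2 of which were CD135-upper, Flt3 was 242 CPM in 26 CD135-middle cells, against 99.4 CPM in 36 CD135-lower cells, 1.28 (0.87 to 1.70). The pools differed there, with 0.55 (-0.04 to 1.14) in pool 1 and 2.03 (1.42 to 2.66) in pool 2. In cKit-lower cells, Flt3 was 539 CPM in 43 CD135-upper cells, against 381 CPM in 12 CD135-middle cells, 0.50 (0.14 to 0.87), with 0.80 (0.31 to 1.33) in pool 1 and 0.07 (-0.45 to 0.63) in pool 2. The correlation of Flt3 CPM with CD135 was 0.49, 0.63 and 0.48 within the lower, middle and upper cKit class.

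The link of Kit to cKit within CD135 classes was less steady. Among CD135-upper cells, Kit was 394 CPM in 19 cKit-middle cells, against 267 CPM in 43 cKit-lower cells, a log2 ratio of 0.56 (0.25 to 0.87), with 0.37 (-0.05 to 0.79) in pool 1 and 0.76 (0.27 to 1.25) in pool 2. Of these cKit-lower cells, 9 were CD127-high. Without them Kit was 320 CPM in the other 34, and the ratio was 0.30, with an interval of -0.02 to 0.62 that spans 0. Among CD135-middle cells, Kit was 484 CPM in 26 cKit-upper cells, against 295 CPM in 12 cKit-lower cells, 0.71 (0.30 to 1.15), but this was 1.29 in pool 1 and -0.08 (-0.68 to 0.57) in pool 2. Among CD135-lower cells, Kit was 547 CPM in 36 cKit-upper cells, against 493 CPM in 8 cKit-lower cells, 0.15 (-0.22 to 0.54). These 8 cells had low signals of both proteins, and their Kit mRNA was near that of cells with a high cKit signal. Over both pools their Flt3 was the lowest of the 9 combinations, 51.6 CPM from 7 UMIs, with an exact Poisson interval of 20.7 to 106. The pools differed in this. Among CD135-lower cells, Flt3 in cKit-upper over cKit-lower was 3.31 (0.76 to 8.64) in pool 1 and -0.46 (-1.73 to 1.09) in pool 2. A CD127-high cell is among the 8.

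**Figure D3:**
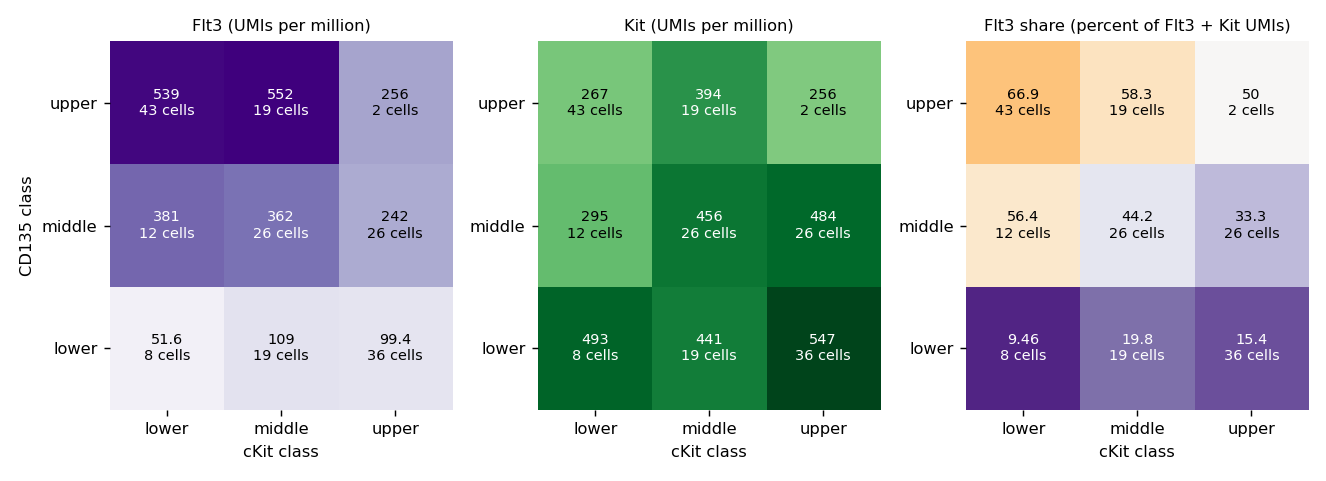
Flt3 level, Kit level (both in summed UMIs per 1000000 gene UMIs) and Flt3 share of the receptor UMIs in the 9 combinations of CD135 class (rows) and cKit class (columns), with the number of cells in each. Flt3 darkens from the lower to the upper row. Apart from the 2 cells upper for both, Kit is palest at cKit-lower in the middle and upper rows, but is at 493 CPM in the 8 cells that are lower for both.

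The balance was next read from whether each cell held both mRNAs. Of CD135-lower cells, 42 of 63 held both and 21 held Kit alone. Of CD135-middle cells, 60 of 64 held both and 3 held Kit alone, and of CD135-upper cells, 61 of 64 held both, 1 held Kit alone and 2 Flt3 alone. Cells with both were thus the majority in every class. Thinned to equal depth, cells with both were 61.0%, 91.2% and 91.1% of the lower, middle and upper class. Flt3 outnumbered Kit in 3, 19 and 49 cells of the lower, middle and upper class, and Kit outnumbered Flt3 in 59, 37 and 9. By cKit, Flt3 outnumbered Kit in 40, 26 and 5 cells and Kit outnumbered Flt3 in 16, 33 and 56.

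Among the 140 cells with at least 10 receptor UMIs, the Flt3 share of a cell ran from 0% to 55.6% with a median of 8.51% in 40 CD135-lower cells. It ran from 6.67% to 83.3% with a median of 45.5% in 49 CD135-middle cells, and from 25% to 93.3% with a median of 63.6% in 51 CD135-upper cells. The lower and upper ranges overlap between 25% and 55.6%. The share per cell had a correlation of 0.75 with CD135 (0.70 in pool 1 and 0.79 in pool 2) and of -0.54 with cKit, over 190 cells. The difference of the CD135 and cKit ranks had a correlation of 0.73 with it, no higher than CD135 alone.

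**Figure D4:**
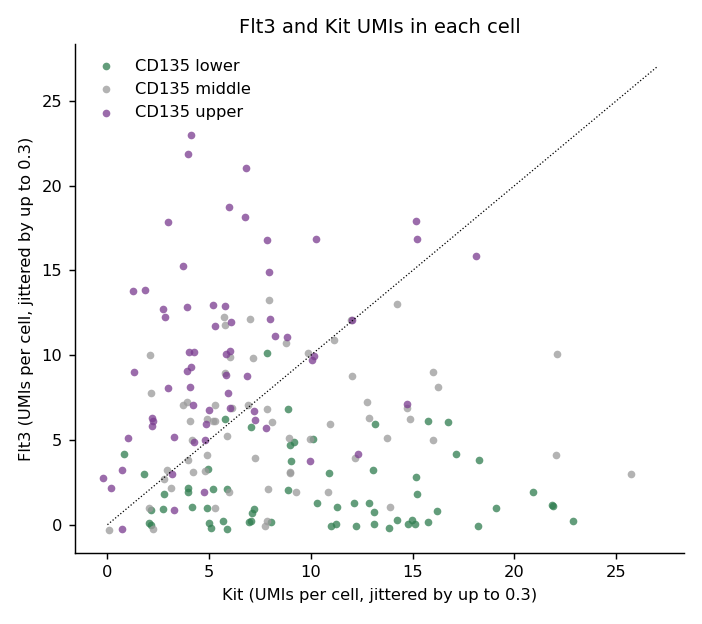
Flt3 against Kit UMIs in each of the 191 cells, jittered by up to 0.3 so that equal counts can be seen, coloured by CD135 class. The dotted line marks equal counts. CD135-upper cells lie mostly above the line and CD135-lower cells mostly below it, and cells with both mRNAs fill the space between.

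Although the mRNAs moved in opposite directions across the CD135 and cKit classes, their levels in single cells had a correlation near 0. Flt3 CPM and Kit CPM had a correlation of -0.05 over 191 cells (-0.03 in pool 1 and -0.08 in pool 2), both values being divided by the same total of the cell. Within the lower, middle and upper CD135 class it was 0.11, 0.25 and 0.30. The spread of each mRNA was wider than counting alone would give. The variance of counts was 3.5, 2.51 and 3.04 times the counting variance for Flt3 in the lower, middle and upper CD135 class, and 3.07, 3.26 and 2.26 times for Kit.

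The other label signals were taken in the same way. The lineage and stem cell markers CD16/32 (Fc gamma receptors, found on granulocyte and macrophage progenitors) and CD150 (a SLAM receptor of stem cells) had the largest differences in balance after CD135 and cKit and the CD127-high cells. Flt3 was 237 CPM in CD16/32-upper cells, against 399 CPM in CD16/32-lower cells, a log2 ratio of -0.75 (-0.96 to -0.54). Kit was 463 CPM in the upper and 334 CPM in the lower cells, 0.47 (0.29 to 0.66). The receptors thus moved apart, with a Flt3 share of 33.8% in CD16/32-upper cells and 54.4% in CD16/32-lower cells, and a balance of -1.22 (-1.28 in pool 1 and -1.12 in pool 2). Neither was past 2-fold, while 1.21% of genes were past it higher and 0.832% lower. The CD135 signal was lower in the CD16/32-upper cells, with a median of 528 against 1105 in CD16/32-lower cells. Within CD135 classes the balance was 0.07 (-0.78 to 0.95) in the lower, -0.86 (-1.38 to -0.33) in the middle and -0.82 (-1.30 to -0.35) in the upper class, where it was -0.67 (-1.17 to -0.18) without CD127-high cells.

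By CD150, Flt3 differed, and the interval of Kit was centred on 0. Kit was 432 CPM in CD150-upper and 433 CPM in CD150-lower cells, 0.00 (-0.18 to 0.17), while Flt3 was 211 CPM in CD150-upper and 392 CPM in CD150-lower cells. The balance was -0.89 (-1.17 to -0.61), with -1.11 and -0.65 in the pools. Neither gene was past 2-fold, while 2.3% of genes were past it higher and 1.06% lower. The median CD135 signal was 360 in CD150-upper and 807 in CD150-lower cells. Over all cells the Flt3 ratio was -0.89 (-1.11 to -0.67), with -1.01 in pool 1 and -0.78 in pool 2. Within CD135-lower cells it lay farther from 0 over both pools and in pool 2, but not in pool 1. The intervals over both pools overlap. Flt3 was 57.7 CPM in 30 CD150-upper cells, against 179 CPM in 17 CD150-lower cells, -1.63 (-2.26 to -1.01), with -0.93 in pool 1 and -2.64 in pool 2. The median CD135 signals of these were 196 and 212. Within CD135-upper cells, Flt3 had an interval that spans 0, -0.13 (-0.43 to 0.17), and Kit was 208 CPM in 15 CD150-upper cells, against 337 CPM in 26 CD150-lower cells, -0.69 (-1.15 to -0.25). Without CD127-high cells this Kit ratio was -0.42 (-0.91 to 0.05).

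Sca-1, the stem and progenitor antigen encoded by Ly6a, went with more Flt3 in both pools and with more Kit in pool 1 only. Flt3 was 360 CPM in Sca-1-upper and 232 CPM in Sca-1-lower cells, 0.64 (0.42 to 0.85). The median CD135 signal was 877 in Sca-1-upper and 332 in Sca-1-lower cells. Kit was 447 CPM in Sca-1-upper and 371 CPM in Sca-1-lower cells, 0.27 (0.09 to 0.45). It was 0.52 (0.27 to 0.77) in pool 1 and -0.03 (-0.30 to 0.24) in pool 2. The balance was 0.37 (0.08 to 0.65), with 0.10 in pool 1 and 0.70 in pool 2. Neither was past 2-fold, while 2.33% of genes were past it higher and 1.12% lower. Within CD135-upper cells the balance had the opposite sign, -0.88 (-1.44 to -0.32). There Kit was 324 CPM in 23 Sca-1-upper cells, against 180 CPM in 16 Sca-1-lower cells, 0.84 (0.39 to 1.31), and Flt3 was 492 CPM in the upper and 503 CPM in the lower cells. Without CD127-high cells, 21 Sca-1-upper and 10 Sca-1-lower cells were left, Kit was 0.48 (-0.02 to 1.01) and the balance was -0.41 (-1.07 to 0.23), so both intervals span 0.

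CD11b, an integrin of myeloid cells, and side scatter, a measure of granularity, went with less Flt3, while Kit differed in sign between the pools. Flt3 was 232 CPM in CD11b-upper and 345 CPM in CD11b-lower cells, -0.57 (-0.79 to -0.35). Kit differed by 0.01 (-0.17 to 0.19), with opposite signs in the pools, -0.23 (-0.47 to 0.02) in pool 1 and 0.28 (0.01 to 0.55) in pool 2. The CD11b balance of -0.58 was -0.20 (-0.60 to 0.20) in pool 1 and -0.95 (-1.36 to -0.54) in pool 2. Flt3 was 247 CPM in side-scatter-upper and 357 CPM in side-scatter-lower cells, -0.54 (-0.75 to -0.32). Kit differed by 0.01 (-0.17 to 0.19), with 0.25 (-0.01 to 0.50) in pool 1 and -0.26 (-0.53 to 0.01) in pool 2. Counted per cell, Kit had 9.10 UMIs in CD11b-upper and 7.375 in CD11b-lower cells. It had 8.78 in side-scatter-upper and 6.89 in side-scatter-lower cells. Both differences had the same sign in each pool. Neither gene was past 2-fold by either signal. By CD11b 1.59% of genes were past 2-fold higher and 0.948% lower, and by side scatter 2.31% and 1.18%.

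Larger cells had less of both mRNAs per 1000000 UMIs over both pools, while the counts per cell did not go the same way. By forward scatter, a measure of size, Flt3 was 267 CPM in upper and 338 CPM in lower cells, -0.34 (-0.55 to -0.12), with -0.46 in pool 1 and -0.20 (-0.48 to 0.09) in pool 2. Kit was 337 CPM in upper and 496 CPM in lower cells, -0.56 (-0.74 to -0.38), with -0.54 and -0.60 in the pools. Counted per cell, Flt3 had 6.55 UMIs in upper and 5.16 in lower cells, and Kit had 8.27 in upper and 7.58 in lower cells. For Kit the pools went opposite ways, with 9.53 in upper and 7.75 in lower cells of pool 1, and 7.0 in upper and 7.41 in lower cells of pool 2. The gene UMIs per cell were 24503 in upper and 15274 in lower cells. The total thus moved more than either receptor, and the balance was 0.22 with an interval of -0.06 to 0.50. Neither was past 2-fold, while 3.56% of genes were past it higher and 2.1% lower.

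**Figure D5:**
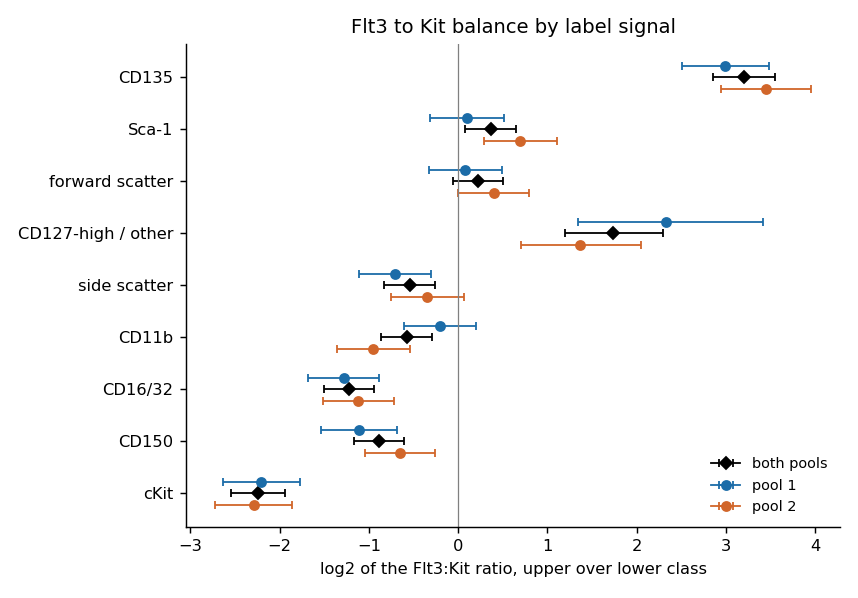
Log2 ratio of the Flt3 to Kit balance, upper over lower class, for each label signal, and CD127-high over other cells. Black diamonds are both pools, blue circles pool 1 and orange circles pool 2, with exact 95% intervals for counting error. CD135 stands at 3.20 and cKit at -2.24, and the CD127-high cells at 1.73.

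CD127 is the interleukin 7 receptor alpha chain, a marker of lymphoid progenitors. With CD127 ranked into classes, Kit was 384 CPM in CD127-upper and 474 CPM in CD127-lower cells, -0.30 (-0.48 to -0.13), with -0.54 in pool 1 and -0.03 in pool 2. Flt3 was 288 CPM in CD127-upper and 298 CPM in CD127-lower cells, -0.05 (-0.26 to 0.16). The balance was 0.25 (-0.03 to 0.53), with 0.78 in pool 1 and -0.20 in pool 2. Neither receptor was past 2-fold, while 1.85% of genes were past it higher and 0.737% lower. Within CD135-lower cells, Flt3 was 48.8 CPM in 18 CD127-upper cells, against 163 CPM in 29 CD127-lower cells, -1.74 (-2.51 to -1.03), with -1.86 in pool 1 and -1.94 in pool 2. Kit was 539 CPM in CD127-upper and 536 CPM in CD127-lower cells of that class, 0.01 (-0.25 to 0.27).

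The 14 cells with a CD127 signal above 2000, called CD127-high, 5 in pool 1 and 9 in pool 2, had less Kit mRNA than the rest, while the interval of their Flt3 ratio spans 0. Kit per cell was 0, 3 and 8 UMIs as lowest, median and highest in CD127-high cells, against 0, 7 and 26 in the 177 other cells. The ranges overlap, and the highest CD127-high count lies near the median of the rest. Kit was 145 CPM in CD127-high and 447 CPM in other cells, a log2 ratio of -1.62 (-2.09 to -1.19), with -2.32 in pool 1 and -1.23 in pool 2. Flt3 was 329 CPM in CD127-high and 306 CPM in other cells (-0.21 to 0.40 on the log2 scale). The Flt3 share was 69.4% in CD127-high and 40.6% in other cells, a balance of 1.73 (1.19 to 2.29), with 2.33 in pool 1 and 1.36 in pool 2. With CD127-high set at a signal above 1000 instead of 2000, the balance was 0.66. Among 8714 genes, 12.9% were past 2-fold lower and 3.05% higher in these cells. Kit was among the lower ones, with 491 genes below it, so it was 1 of 1122 such genes.

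Their cKit signal was low as well, with a median of 2886 against 6699 in other cells, and their median CD135 signal was 1743 against 614. Compared only among cells that were both CD135-upper and cKit-lower, Kit was still lower, at 116.3 CPM in 9 CD127-high cells, against 320 CPM in 34 other cells, -1.46 (-2.14 to -0.84). The cKit signal still differed in that comparison, with medians of 3102 and 4305. Flt3 was 446 CPM in these CD127-high and 572 CPM in these other cells, -0.36 (-0.71 to -0.02). The balance was 1.10 (0.38 to 1.86).

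Summed genes of dividing cells and of dendritic cells were higher in the CD127-high cells in both pools. Those of mature lineages and of mast cells and basophils went opposite ways in the pools. The 6 mitotic genes summed to 1558 CPM in CD127-high cells (2041 in pool 1 and 1185 in pool 2), against 360 CPM in other cells (451 and 258). The 8 dendritic cell genes, all with UMIs, summed to 336 CPM in CD127-high cells (325 and 344), against 159 CPM in other cells (87.7 and 240). The 10 genes of mature lineages, of which Cd3e, Ms4a1, Ly6g and S100a8 had no UMI, summed to 55.99 CPM in CD127-high cells (106 and 17.5), against 56.2 CPM in other cells (59.9 and 51.9). The mast cell and basophil genes, of which Fcer1a, Cma1 and Prss34 of 8 had none and Gata2 is also made by stem cells, summed to 164.7 CPM in CD127-high cells (15.1 and 280.1), against 204 CPM in other cells (252 and 148.9). Their main members went opposite ways. Cpa3, a mast cell protease, was 161 CPM in CD127-high and 71.7 CPM in other cells (log2 1.17, with -2.52 in pool 1 and 2.32 in pool 2). Gata2 was 3.29 CPM, from 1 UMI, in CD127-high and 114 CPM in other cells. The 4 LSK genes, Kit among them, summed to 883 CPM in CD127-high and 1362 CPM in other cells. The part of these cells' makeup in the Kit result was not tested.

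The same marker lists were also summed along the receptors' own signals. The dendritic cell genes summed to 51.7, 134 and 345 CPM in the lower, middle and upper CD135 class, and the upper class had 164.4 CPM in pool 1 and 541 CPM in pool 2. By cKit they summed to 380, 113 and 59.8 CPM. The mast cell and basophil genes summed to 389, 154 and 47.5 CPM by CD135 and 167, 205 and 224 CPM by cKit. Without Gata2 they summed to 195, 68.5 and 16.7 CPM by CD135 and to 115, 104 and 72.6 CPM by cKit, so the order by cKit turned. The genes of mature lineages summed to 68.9, 57.9 and 40.8 CPM by CD135. The pools went opposite ways, with 88.6, 66.2 and 31.9 CPM in pool 1 and 45.9, 49.4 and 50.5 CPM in pool 2. The 1 member with enough UMIs to compare was past 2-fold higher in CD135-upper cells (1.34). The mitotic genes summed to 568, 349 and 454 CPM by CD135. Whether these cells have a part in the receptor differences was not tested.

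Genes were then ranked by how alike their level per cell was to each receptor, as the mean of the within-pool Spearman correlations over 191 cells, among 2588 other genes. The median of all genes was 0.00 for Flt3, with 5% to 95% between -0.18 and 0.22, and 0.04 for Kit, with -0.14 to 0.21. Most like Flt3 were Ighm (0.62), H2afy, a macroH2A histone (0.55), Satb1, a chromatin organiser of lymphoid cells (0.55), Dntt, the terminal transferase of lymphoid progenitors (0.53), and Cd34 (0.45). Least like it were Gata2, a transcription factor of stem and mast cells (-0.45), Muc13 (-0.42), Creg1 (-0.36), Hdgf (-0.34) and Nucks1 (-0.34). Most like Kit were Adgrg1, an adhesion receptor of stem cells (0.44), Muc13 (0.40), Lmo2, a partner of TAL1 and GATA factors (0.40), and Myb (0.38). Least like it were Dntt (-0.35), Ighm (-0.32), Minos1 (-0.30), Idh3a (-0.29) and Cox7b (-0.29). Muc13 and the lymphoid genes Ighm and Dntt thus stood at opposite ends for the receptors. Dach1 had -0.32 with Flt3, rank 2582 of 2588, and 0.34 with Kit, rank 10.

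Of the receptors' ligands, Kitl had 1 UMI, in 1 cell, and Flt3l was not analysed here. Of the other class III receptors, Csf1r, the receptor of macrophage colony-stimulating factor, had 45 UMIs in 25 cells and Pdgfrb had 49 UMIs in 37 cells, both under the minimum of 50 in the compared classes. Csf1r was 22.5 CPM in CD135-upper and 5.48 CPM in CD135-lower cells, with a log2 ratio of 0.14 in pool 1 and 3.49 in pool 2.

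Of 30 adaptors and effectors, 25 could be compared across CD135 classes. None was past 2-fold higher and 1 was lower, Stat5a (-1.23), a transcription factor activated by both receptors, beside 2.81% higher and 3.08% lower over all genes. Their median was 0.00, against -0.04 over all genes. By cKit, Stat5a was the only member past 2-fold (1.15), beside 2.27% higher and 1.8% lower over all genes, and the median was 0.06 against 0.05 over all genes. The 3 with the most UMIs were Grb2, Pik3r1 and Akt1, with 685, 679 and 575 UMIs.

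Of 17 negative regulators, 11 could be compared. Dok2, a docking protein that restrains tyrosine kinase signalling, was past 2-fold higher in CD135-upper cells (1.05) and lower in cKit-upper cells (-1.56). Socs6, which binds activated KIT, did likewise (1.11 and -1.001). No other member was past 2-fold. Over all genes the shares were 2.81% higher and 3.08% lower by CD135, and 2.27% and 1.8% by cKit, and with 11 members nothing particular to the list is read from its counts. The list's median was 0.32 by CD135 and -0.18 by cKit. Its members with the most UMIs were the phosphatase genes Inpp5d (445 UMIs, 0.90 by CD135) and Ptpn6 (383 UMIs, 0.49), and Spred1 (256 UMIs, -0.53).

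Of 15 transcription factors known to bind or regulate Flt3 or Kit, 12 could be compared. Gata2 (-2.66) and Tal1 (-1.26), both known at Kit regulatory elements, were past 2-fold lower in CD135-upper cells, and past 2-fold higher in cKit-upper cells (1.55 and 1.09). Hoxa9, a factor known to regulate Flt3, was past 2-fold higher in CD135-upper cells (1.16). These counts stand beside the same all-gene shares of 2.81% higher and 3.08% lower by CD135, and 2.27% and 1.8% by cKit. The other 9 were not past 2-fold by CD135, among them Lmo2 (2134 UMIs, 0.02), Myb (1593 UMIs, -0.79) and Meis1 (1107 UMIs, -0.44). The median of the list was 0.00 by CD135 and 0.06 by cKit, near that of all genes.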

How the data were processed

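The authors deposited raw counts, 1 UMI count for each gene in each cell and not normalized, of 192 index-sorted cells, made by an adapted CEL-seq2 protocol with UMIs of 6 bases, per the labels' protocols. Per the submitters' processing notes the build was GRCh38, a human build, although the gene identifiers are those of mouse. For the aligner, the counter and UMI collapsing, the tools were not given in the sources used here. Symbols and positions came from GENCODE M21 (GRCm38), by identifier, for 20530 of 20764 genes, and promoters from RefSeq (GRCm38.p6).

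The first index of a cell's title gave its pool. A cell needed at least 20% of the median gene UMIs of its pool. Doublets were not called, since cells were sorted singly. Classes were the 32 lowest, middle and highest cells of each pool by the label value, ranked before the filter, and the sixths held 16. UMIs were summed per class and divided by all gene UMIs, without the 71 spike-ins. Depth sets the precision: intervals are 95% and exact. They are conditional binomial for ratios between classes and those of a conditional odds ratio for the Flt3 to Kit balance. Sums have Poisson and shares Clopper-Pearson intervals. All these intervals cover counting error only. With 1 biological sample no test was possible.

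A gene was past 2-fold with a log2 ratio of at least 1 or at most -1 over both pools and the same sign in each, among genes with at least 50 UMIs in the classes. Likeness was ranked among genes with at least 200 UMIs, a UMI in most cells, at most 20% of them in any cell, leaving out predicted models, pseudogenes and ribosomal protein genes. Named were the 5 most and 5 least like each receptor, of which 1 is not reported here, Dach1, list members past 2-fold and the 3 of each list with the most UMIs. The genes highest or lowest for a signal, the ligands, the other class III receptors and the marker genes were named beside them. The members and lists were chosen with earlier results of these data known. The code was tested on simulated data. Tools were Python 3.11.15, numpy 2.4.6, scipy 1.17.1, pandas 2.3.3 and matplotlib 3.10.9. Alternatives were other scalings, splits by the median, each pool alone, no cell filter, cells weighted equally, thinning, other minimums, and leaving out the top cells or the CD127-high cells.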

Additional observations from a re-analysis of the deposited data

How the results depend on the processing

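Of the values recomputed under alternatives, 112 stayed within the counting interval of the reported value, within 0.1 of a correlation or within 1.5 times a count, and 24 moved. None reversed a direction whose interval excluded 0, and the cause of each move was not tested, except that splitting cells at the median sets less extreme cells against each other by construction. With that split, Flt3 was 1.68 by CD135 and -1.04 by cKit, and the balance was 2.26 by CD135, -1.64 by cKit, -0.57 by CD150 and -0.26 by side scatter. With spike-in scaling, Kit was 1.05 and Flt3 -1.19 by cKit. Kit by CD135 was -0.47 in pool 1 and -1.06 in pool 2, and the balance was 0.70 by Sca-1 in pool 2, -0.20 by CD11b in pool 1, -0.95 by CD11b in pool 2 and 2.33 for CD127-high cells in pool 1. With CD127-high set at a signal above 1000, that balance was 0.66. Without the CD127-high cells, an alternative chosen for all but the correlation after seeing the data (as were the values within CD135-upper cells without them and the mast cell genes without Gata2), Kit by cKit was 0.52, its correlation 0.29, and the balance 0.73 by Sca-1 and -0.093 by forward scatter, where the interval spans 0. The correlation of Kit with cKit was 0.52 with unscaled UMIs and 0.52 with UMIs over spike-in UMIs. With at least 2 UMIs of each, 72.8% of cells held both receptors. With at least 10 UMIs per gene, 1564 genes were past 2-fold by CD135 and 1279 by cKit, against 426 and 296 reported. No paired analysis was possible because the cells carry no replicate number that is shared between classes.

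With 1 sample, no animal-to-animal spread is known. A median of 5 Flt3 and 7 Kit UMIs per cell limits single-cell shares, and a count of 0 does not show that a cell lacks the mRNA. Classes within classes rest on as few as 8 cells.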
